A study of Homo sapiens with 9 samples.

Results

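The protocadherin genes were taken as every gene symbol in the expression tables that begins with PCDH, with PCDH11X and PCDH11Y left out, which gave 70 of 23619 symbols. Of these, 57 lie in the 3 protocadherin clusters of chromosome 5, with 15 PCDHA, 19 PCDHB and 23 PCDHG genes. A further 11 are non-clustered genes spread over chromosomes 4, 5, 10, 13 and X, and 2 are the antisense RNAs PCDH9-AS2 and PCDH9-AS3. RKO, an established human colorectal carcinoma cell line, had been made deficient in DIP2C by rAAV-mediated gene targeting, which deleted part of a coding exon. The 9 samples were parental RKO (2 samples), the DIP2C-/- clones E3 and C10, and 5 DIP2C+/- clones (A6-C9, A9-A12, F6-A7, G1-A5 and H9-A4). Each was grown for 48 h and sequenced as 1 bulk RNA library. The labels do not say whether the parental samples came from separate cultures, so the spread of that pair may be technical. P-values rest on a spread pooled over the genotypes, most of it between clones, and treat the clones as independent samples. Per the paper, its clones were made by targeting, Geneticin selection, growth from single cells and removal of the marker by Cre. The labels do not give the steps of each of the 7 clones. Both DIP2C-/- clones descend from 1 DIP2C+/- clone, which the labels do not name, and went through further targeting. Between DIP2C-/- and DIP2C+/- clones, genotype and rounds of targeting therefore cannot be told apart. No clone with intact DIP2C went through the same steps, so genotype and clonal selection cannot be told apart. More DIP2C+/- clones are in the tables than the study describes.

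Protocadherins are transmembrane adhesion proteins of the cadherin superfamily that bind like molecules on neighbouring cells. In the PCDHA and PCDHG clusters each variable first exon has its own promoter and is spliced to constant exons at the end of its cluster, whereas each PCDHB gene is a single-exon gene. In neurons each cell uses its own small set of clustered promoters, a choice that involves CTCF, cohesin and DNA methylation. In carcinomas the clusters and several non-clustered members are known for changed promoter methylation.

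In GRCh37, which has the coordinates of hg19, the PCDHA genes span 140165721 to 140391932 on chromosome 5, the PCDHB genes 140430959 to 140628933 and the PCDHG genes 140710081 to 140892544, and PCDH1 lies further along the chromosome at 141232655 to 141258811, on the minus strand. RefSeq promoters (GRCh38.p14, 250 bases before to 50 after the start) were found for 57 of the 70 genes. The sequence of 8 bases shared by the most promoters of a cluster, picked from these promoters and searched on both strands, was ATGTCGCT in 9 of 13 PCDHA genes, GGTGGCGC in 13 of 14 PCDHB genes and GCCGCTGT in 11 of 20 PCDHG genes. Among all 35116 RefSeq promoters, 0.234%, 2.23% and 1.63% held them. No exact copy of any of the 3 was in the promoters of the other 2 clusters or in those of 9 non-clustered genes. Near copies were not counted, and the 3 sequences resemble each other. Every window below holds CGCT within the marked bases or, for PCDHB genes, with the base after them. PCDHGA4 and PCDHGB2, counted as without GCCGCTGT, hold gtcgctgt, which differs from it at a single base. The windows below are shown because 5 of the PCDHB and 2 of the PCDHG genes followed here share one sequence at their start, and the first 2 PCDHA genes are given for comparison. Capitals mark the shared 8 bases.
PCDHB2, chr5:141094539-141094578, plus strand: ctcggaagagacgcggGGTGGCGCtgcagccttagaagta
PCDHB8, chr5:141177772-141177811, plus strand: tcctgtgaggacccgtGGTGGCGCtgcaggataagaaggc
PCDHB16, chr5:141182305-141182344, plus strand: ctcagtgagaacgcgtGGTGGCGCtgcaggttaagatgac
PCDHB13, chr5:141213860-141213899, plus strand: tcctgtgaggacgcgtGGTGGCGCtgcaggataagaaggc
PCDHB14, chr5:141223258-141223297, plus strand: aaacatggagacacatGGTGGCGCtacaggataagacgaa
PCDHGB1, chr5:141350023-141350062, plus strand: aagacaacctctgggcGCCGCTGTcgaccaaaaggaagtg
PCDHGA10, chr5:141412929-141412968, plus strand: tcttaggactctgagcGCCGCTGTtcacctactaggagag
PCDHA1, chr5:140786082-140786121, plus strand: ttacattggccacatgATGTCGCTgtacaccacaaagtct
PCDHA2, chr5:140794777-140794816, plus strand: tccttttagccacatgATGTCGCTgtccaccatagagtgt
The windows of PCDHB8 and PCDHB13 had the same base at 39 of 40 positions, against 24 to 33 for the other pairs of these PCDHB genes.

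PCDHAC2, the last variable exon of the PCDHA cluster, held none of the 3 sequences in its promoter. Its 250 bases before the start are shown because this gene was the member furthest below the parental samples. They hold 13 CG pairs and are 62.4% G or C. The promoters of PCDHB11, PCDHGC5 and PCDH10 were not matched and are not shown.
PCDHAC2, GRCh38.p14 chr5:140966226-140966475, plus strand: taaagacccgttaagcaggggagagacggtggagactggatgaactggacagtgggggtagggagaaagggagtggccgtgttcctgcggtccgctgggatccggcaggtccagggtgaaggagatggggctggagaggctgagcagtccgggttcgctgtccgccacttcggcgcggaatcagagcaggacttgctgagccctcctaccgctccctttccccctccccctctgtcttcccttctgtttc

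The constant exons are shared letter for letter, so reads from them cannot be assigned to one gene of a cluster. The shortest of each is shown from GRCh37, a stretch of 59 bases that belongs to all 15 PCDHA genes and one of the same length that belongs to 22 of the 23 PCDHG genes.
PCDHA constant exon, chr5:140358534-140358592, plus strand: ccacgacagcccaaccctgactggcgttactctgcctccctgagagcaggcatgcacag
PCDHG constant exon, chr5:140874374-140874432, plus strand: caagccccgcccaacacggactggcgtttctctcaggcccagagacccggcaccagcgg
Of all windows of 75 bases in a gene's annotated transcripts, a median of 46.6% (18.3% to 65.8%) were shared with another protocadherin gene in the PCDHA cluster and 42.5% (0% to 69.3%) in the PCDHG cluster. In PCDHB genes the median was 8.8%, with PCDHB8 highest at 34.5%, and in non-clustered genes no window was shared. With zeros and very high values left out, deposited values were compared with whole multiples of the value of 1 read. Within 0.02 read, 73.8% of 122 PCDHA and 65.2% of 207 PCDHG values were such multiples. The shares were 100% of PCDHB and non-clustered values and 97.2% of those of other genes. The values of single PCDHA and PCDHG genes are therefore estimates in which shared reads may have been divided, and are uncertain in that respect.

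Totals of the deposited estimated counts were 14772593 to 21486483 per sample, at which 3 counts correspond to 0.14 to 0.203 CPM (counts scaled to a common library size). DIP2C itself was at 60.9 and 70.8 CPM in the parental samples, 17.4 and 22.8 in the DIP2C-/- clones E3 and C10, and 33.6 to 56.2 with a median of 41.7 in the 5 DIP2C+/- clones, highest in H9-A4. The values of the 3 groups did not overlap. The log2 fold change against parental was -1.71 (SE 0.25) in DIP2C-/- and -0.60 (SE 0.20) in DIP2C+/- clones, with edgeR adjusted p of 0.0998 and 0.386, and of 0.00103 and 0.0285 when H9-A4 was left out. Clone H9-A4 stood apart from the other clones: among 10645 genes of at least 5 CPM its median difference from the parental samples was 0.209 and 0.224 on the log2 scale, against 0.257 to 0.328 for the other 6 clones, and results are given with and without it. Of 9 colorectal epithelial markers, 5 reached 1 CPM in at least 1 sample and the others in none. CDX2 was at 15.5 to 19.8 CPM and KRT8 at 7.0 to 21.5 CPM, CDH1 stayed between 0.291 and 0.717 CPM and EPCAM between 0.0483 and 3.78 CPM. Most of the summed CPM of the 9, given further below, came from markers not named here. None of 4 blood cell markers reached 1 CPM.

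Most protocadherin genes were expressed at low levels in RKO. Between 48 and 60 of the 70 genes reached 3 counts in a sample and between 19 and 27 reached 1 CPM. In total they took 185 and 209 CPM in the parental samples, and 149 to 165 CPM with a median of 158 in the clones. The summed values of the 7 clones all lay below those of both parental samples. In bulk samples, fewer cells expressing a gene and less RNA per cell cannot be told apart. The clusters differed widely: in the plot of summed expression the PCDHB genes held the largest share of the CPM in every sample, with PCDHG genes second.

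**Figure D1:**
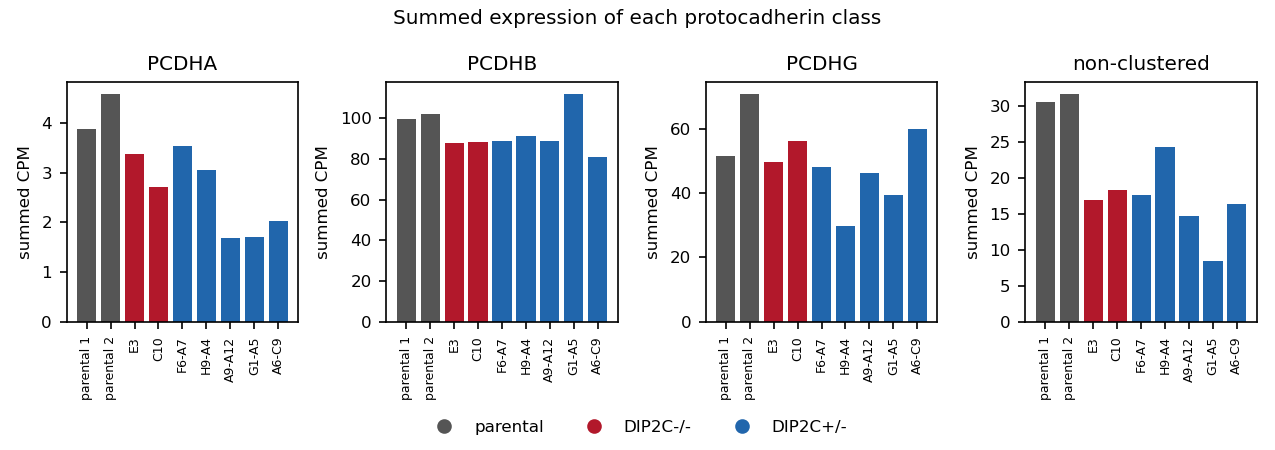
Summed CPM (vertical axes, from 0) of the 15 PCDHA, 19 PCDHB, 23 PCDHG and 11 non-clustered genes in each of the 9 samples, 1 bar a sample, grey for parental, red for DIP2C-/- and blue for DIP2C+/-. Parental bars exceed all clone bars for PCDHA and for non-clustered genes, and are within the range of the clones for PCDHB.

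PCDHA genes summed to 3.88 and 4.59 CPM in the parental samples and 1.69 to 3.54 CPM in the clones, of which PCDHAC2 alone accounted for 2.39 and 1.67 CPM in the parental samples. The PCDHB sum was 99.5 and 102 CPM in the parental samples and 80.9 to 112 in the clones. Clone G1-A5 lay above both parental samples and the other 6 clones below them. For PCDHG the sums were 51.6 and 70.8 CPM in the parental samples and 29.8 to 59.9 in the clones, lowest in H9-A4, and the ranges overlapped. The non-clustered sum was 30.5 and 31.7 CPM in the parental samples and 8.46 to 24.3 in the clones, without overlap, and it followed PCDH1, which held 80.3% and 80.4% of it in the parental samples and 37.9% to 76.5% in the clones.

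Expression within the PCDHB cluster was carried by few genes, whereas that of the PCDHG cluster was spread over more of its genes. PCDHB2, PCDHB8, PCDHB11, PCDHB13, PCDHB14 and PCDHB16 were the 6 PCDHB genes that averaged 5 CPM or more, and together they held 81.8% to 90.7% of the PCDHB sum in the 9 samples. Per kilobase of exon the parental level was 5.48 CPM for PCDHB13, 4.24 for PCDHB2, 4.05 for PCDHB8, 3.1 for PCDHB14, 2.77 for PCDHB11 and 2.2 for PCDHB16, and the next PCDHB gene, PCDHB3, was at 0.567. In the PCDHG cluster PCDHGA10 and PCDHGB2 passed the same level, and held 28.1% to 47.6% of its sum. PCDH1 was the one non-clustered gene above it, at 4.22 CPM per kilobase in the parental samples. These 9 genes are those whose values rest on the most reads.

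Expression was compared between genotypes with edgeR's quasi-likelihood test across the 15532 genes left by a filter on low counts, among them 47 protocadherin genes: 2 PCDHA, 14 PCDHB, 23 PCDHG and 8 non-clustered. The other 23, the antisense RNAs among them, reached at most 0.616 CPM in any sample. With all 9 samples, 0 of the 47 genes passed an adjusted p of 0.05 in DIP2C-/- against parental (0.00644% of all genes tested passed), in DIP2C+/- against parental (0.0966%), in all knockout clones against parental (0.18%) and in DIP2C+/- against DIP2C-/- clones (0%). At an unadjusted p under 0.05 the numbers were 4, 7, 7 and 1, beside 12.7%, 11.6%, 13.4% and 5.57% of all genes. DESeq2's Wald test gave an adjusted p for 30, 40, 31 and 9 of them and called 0, 2, 3 and 0, where 2.26%, 1.31%, 2.28% and 0.0578% of all genes with an adjusted p were called: PCDHAC2 and PCDHB11 lower in DIP2C+/- clones, and in all clones these 2 lower and PCDHGC5 higher. Without a filter all 70 genes could be fitted and 0 passed in each of the 4 comparisons, beside 0.0133%, 0.0978%, 0.16% and 0% of all genes. Over the 47 genes the median log2 fold change of all clones was -0.21, beside a median of 0.02 over all genes tested. Of the 47, 28 were below and 19 above parental. These numbers depended on the parental sample. Without parental replicate 1, 38 of 53 genes were below and 15 above, and without replicate 2, 25 of 49 were below and 24 above. With no filter 36 of 70 were below and 34 above.

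The spread between samples was smaller without clone H9-A4 (common biological coefficient of variation 0.242, against 0.298), and 15390 genes with 46 of the protocadherin genes were then tested. H9-A4 is the clone nearest to the parental samples over all genes, and the clones are compared with those same samples. Leaving it out can therefore by itself make more genes pass, which limits the adjusted p given without it. Genes passing went from 15 to 1224 in DIP2C+/- clones and from 28 to 1378 in all clones. In DIP2C-/- clones, which do not include H9-A4, they went from 1 to 733. In DIP2C-/- clones 0 of the 46 passed, where 4.76% of all genes did. In DIP2C+/- clones PCDH1, PCDHAC2 and PCDHB11 fell and PCDHGC5 rose, 4 of 46 genes beside 7.95% of all genes. In all remaining clones PCDH1, PCDHAC2 and PCDHGC5 passed, 3 of 46 beside 8.95%, and between DIP2C+/- and DIP2C-/- clones 0 of 46 did, beside 0% of all genes. At an unadjusted p under 0.05 the 4 comparisons had 5, 9, 10 and 1 protocadherin genes, beside 18.7%, 22.3%, 23.1% and 7.1% of all genes. All 3 comparisons with parental share the same 2 parental samples.

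**Figure D2:**
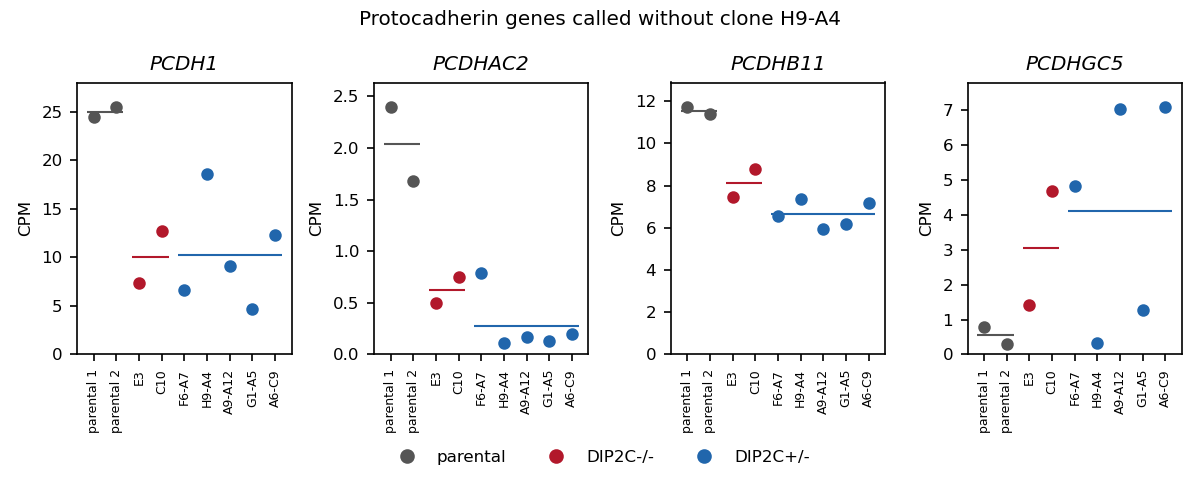
CPM (vertical axes, from 0) of PCDH1, PCDHAC2, PCDHB11 and PCDHGC5 in each sample, 1 point a sample, with a line at each group's mean. For PCDH1, PCDHAC2 and PCDHB11 all clones lie below both parental samples, and for PCDHGC5 all clones except H9-A4 lie above them.

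PCDH1, a non-clustered protocadherin of epithelial cells best known from the airway, was at 24.5 and 25.5 CPM in the parental samples, 7.40 and 12.7 in DIP2C-/- clones E3 and C10, and 6.67 in F6-A7, 18.6 in H9-A4, 9.11 in A9-A12, 4.72 in G1-A5 and 12.3 in A6-C9. All clones were below the parental samples, H9-A4 the least. The means were 25.0 ± 0.683 (SD, n = 2) and 10.2 ± 4.71 (SD, n = 7), and the log2 fold change of all clones was -1.29 (SE 0.40) with an edgeR adjusted p of 0.282. Without H9-A4 it was -1.50 (SE 0.30, adjusted p 0.0111), and for DIP2C+/- clones alone -1.60 (SE 0.33, adjusted p 0.0139). In DIP2C-/- clones it was -1.31 both with and without H9-A4 (adjusted p 0.369 and 0.101), and -1.32 with an adjusted p of 0.0084 when only the parental and DIP2C-/- samples were fitted. That fit called 2 of the 38 protocadherin genes it tested, PCDH1 and PCDHB13, beside 12.6% of all genes.

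PCDHAC2, one of the C-type PCDHA isoforms, was at 2.39 and 1.67 CPM in the parental samples, 0.496 and 0.754 in E3 and C10, and 0.791 in F6-A7, 0.112 in H9-A4, 0.169 in A9-A12, 0.128 in G1-A5 and 0.193 in A6-C9. Every clone was lower than both parental samples, and H9-A4 and G1-A5 were below the level of 3 counts. The log2 fold change of all clones was -2.51 (SE 0.58, edgeR adjusted p 0.185), and -2.32 (SE 0.59, adjusted p 0.0325) without H9-A4. Here, unlike for PCDH1, H9-A4 was the lowest of the clones. In DIP2C+/- clones the change was -2.85 (SE 0.64, adjusted p 0.233), -2.66 (SE 0.66, adjusted p 0.0326) without H9-A4, and in DIP2C-/- clones -1.64 (SE 0.80, adjusted p 0.419). The difference between the genotypes, -1.21 (SE 0.70), did not pass (adjusted p 0.89). Of its annotated windows 46.6% are shared with other members.

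PCDHGC5, the last of the C-type PCDHG isoforms, was the one member that passed in the upward direction. It was at 0.793 and 0.298 CPM in the parental samples, 1.42 and 4.68 in E3 and C10, and 4.84 in F6-A7, 0.335 in H9-A4, 7.04 in A9-A12, 1.28 in G1-A5 and 7.09 in A6-C9. Clone H9-A4 lay between the parental samples and the other 6 above both, over a range from 1.28 to 7.09. The log2 fold change of all clones was 2.79 (SE 1.1, edgeR adjusted p 0.329), and 2.97 (SE 0.79, adjusted p 0.0408) without H9-A4. In DIP2C+/- clones without H9-A4 it was 3.21 (SE 0.82, adjusted p 0.0359) and in DIP2C-/- clones 2.49 (SE 0.86, adjusted p 0.143). The neighbouring C-type genes PCDHGC3 and PCDHGC4 reached at most 1.26 and 0.845 CPM in any sample. Of the annotated windows of PCDHGC5, 42.5% are shared.

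PCDHB11, a single-exon PCDHB gene, was at 11.7 and 11.4 CPM in the parental samples, 7.45 and 8.79 in E3 and C10, and 6.57 in F6-A7, 7.36 in H9-A4, 5.95 in A9-A12, 6.17 in G1-A5 and 7.19 in A6-C9. The clones were all lower than the parental samples and close to one another, from 5.95 to 8.79 CPM. The log2 fold change was -0.71 (SE 0.21) in all clones with an edgeR adjusted p of 0.273, and -0.84 (SE 0.22, adjusted p 0.0428) in DIP2C+/- clones without H9-A4. For all clones without H9-A4 the adjusted p was 0.0527.

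PCDHB13 and PCDHB14, which lie next to each other in the cluster, were also below both parental samples in all 7 clones. PCDHB13, the most highly expressed protocadherin gene, was at 27.1 and 28.3 CPM in the parental samples, 17.9 and 19.8 in E3 and C10, and 18.7 to 26.3 with a median of 21.4 in the DIP2C+/- clones. Its log2 fold change was -0.55 (SE 0.21, edgeR adjusted p 0.354) in DIP2C-/- clones, and -0.57 with an adjusted p of 0.0443 where only these and the parental samples were fitted. PCDHB14 was at 14.1 and 13.3 CPM in the parental samples, 10.8 and 12.9 in E3 and C10 and 6.76 to 12.2 in the DIP2C+/- clones, lowest in H9-A4, and the change of all clones was -0.39 (SE 0.24, adjusted p 0.501). The highest clone values, 26.3 CPM for PCDHB13 and 12.9 for PCDHB14, came close to the parental ones.

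PCDHB2, PCDHB8 and PCDHB16 overlapped between clones and parental samples. PCDHB2 was at 18.1 and 16.7 CPM in the parental samples and at 15.2 to 21.6 in 6 clones, and at 4.46 in H9-A4. That one clone held less than any other sample, and the log2 fold change of all clones was -0.16 (SE 0.41) with it and 0.00 (SE 0.18) without it. PCDHB8 was at 9.76 and 12.5 CPM in the parental samples and 12.0 to 23.8 in the clones, highest in G1-A5 and H9-A4 (20.5), with a change of 0.48 (SE 0.29, edgeR adjusted p 0.493). PCDHB16 was at 9.16 and 7.73 CPM in the parental samples and 4.78 to 14.0 in the clones, lowest in A6-C9 and highest in H9-A4, with a change of 0.05 (SE 0.38, adjusted p 0.967) whose sign turned to -0.10 without H9-A4.

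**Figure D3:**
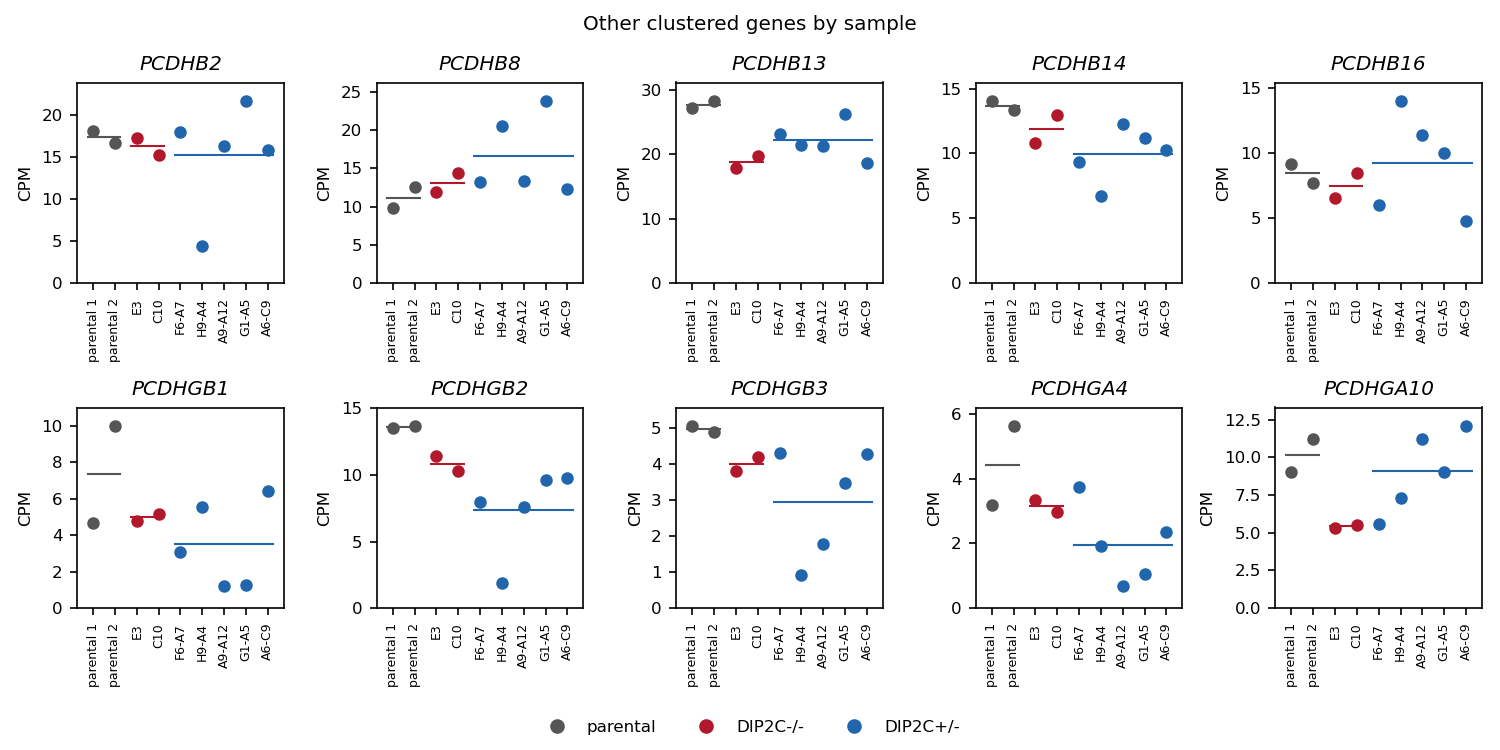
CPM (vertical axes, from 0) of 5 PCDHB and 5 PCDHG genes in each sample, 1 point a sample, with a line at each group's mean. H9-A4 is far below the other samples for PCDHB2 and PCDHGB2, and A9-A12 and G1-A5 are the lowest for PCDHGB1 and PCDHGA4.

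Among the PCDHG genes, PCDHGB2 and PCDHGB3 were below both parental samples in all 7 clones. PCDHGB2 was at 13.5 and 13.7 CPM in the parental samples, 11.4 and 10.3 in E3 and C10, 7.59 to 9.80 in 4 DIP2C+/- clones and 1.93 in H9-A4. PCDHGB3 was at 5.07 and 4.88 CPM in the parental samples, 3.82 and 4.21 in E3 and C10, 1.77 to 4.31 in 4 DIP2C+/- clones and 0.914 in H9-A4. Both genes were thus lowest in H9-A4. Neither change passed: the log2 fold change of all clones was -0.72 (SE 0.43, edgeR adjusted p 0.488) for PCDHGB2 and -0.63 (SE 0.49, adjusted p 0.606) for PCDHGB3, and -0.53 and -0.45 without H9-A4.

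PCDHGB1 and PCDHGA4, which stand next to each other in the cluster upstream of PCDHGB2, were low in another pair of clones. PCDHGB1 was at 4.69 and 9.99 CPM in the parental samples, 1.22 in A9-A12, 1.28 in G1-A5 and 3.08 to 6.42 in the other 5 clones. PCDHGA4 was at 3.2 and 5.64 CPM in the parental samples, 0.675 in A9-A12, 1.06 in G1-A5 and 1.93 to 3.74 in the other clones. The parental samples themselves lay well apart for both genes, and neither passed, with log2 fold changes of all clones of -0.92 (SE 0.58, edgeR adjusted p 0.511) and -0.97 (SE 0.52, adjusted p 0.443). Leaving out parental replicate 1 or 2 gave -1.38 or -0.27 for PCDHGB1 and -1.33 or -0.51 for PCDHGA4, the extremes over all samples left out in turn. PCDHGA10 was at 9.06 and 11.2 CPM in the parental samples, 5.32 and 5.53 in E3 and C10, 5.59 in F6-A7 and 7.33 to 12.1 in the remaining clones. Its log2 fold change was -0.90 (SE 0.38, edgeR adjusted p 0.373) in DIP2C-/- clones against parental and 0.74 (SE 0.33, adjusted p 0.878) in DIP2C+/- against DIP2C-/- clones, and neither passed.

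The other non-clustered genes were low. PCDH10, which is often methylated at its promoter in carcinomas, was at 0.469 and 0.523 CPM in the parental samples, 3.33 in F6-A7, 1.74 in E3 and 0.193 to 0.639 in the other 5 clones. PCDH18 was at 1.15 and 0.930 CPM in the parental samples and 0.145 to 0.766 in the clones, all lower than parental, with a log2 fold change of -1.60 (SE 0.57, edgeR adjusted p 0.319). PCDH7, PCDH12, PCDH15, PCDH17 and PCDH19 were fitted and none passed, and PCDH8, PCDH9 and PCDH20 were under the filter. PCDH15, a component of the hair cell tip link, reached 2.81 CPM in E3, and PCDH19, the X-linked epilepsy gene, 1.90 CPM in F6-A7.

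**Figure D4:**
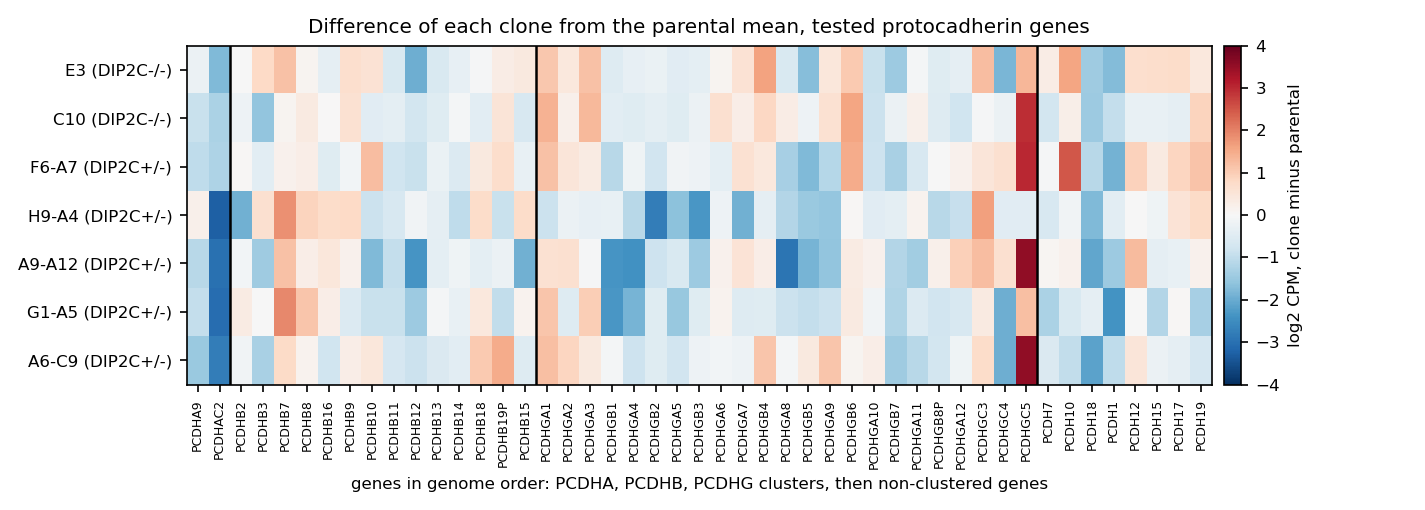
Difference of each clone (rows) from the mean of the parental samples on the log2 CPM scale (colour, with a prior count of 2) for the 47 protocadherin genes tested (columns, in genome order within the PCDHA, PCDHB, PCDHG and non-clustered classes, which black lines separate). Columns that are blue in every row include PCDHAC2, PCDH1 and PCDH18, with PCDH1 pale in H9-A4 and PCDH18 pale in G1-A5. PCDHGC5 is red in every row except H9-A4. Some other columns are strongly coloured in only some rows.

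Single clones, each without a replicate, were compared with the parental mean by size alone. At least 4-fold from it were 0 of the 47 genes in E3 (2.72% of all genes tested), PCDHGC5 in C10 (2.8%), PCDHGC5 and PCDH10 in F6-A7 (2.81%), and PCDHAC2, PCDHGB2 and PCDHGB3 in H9-A4 (1.21%). In A9-A12 there were 7 (3.34%), namely PCDH18, PCDHAC2, PCDHB12, PCDHGA4, PCDHGA8, PCDHGB1 and PCDHGC5. G1-A5 had PCDH1, PCDHAC2 and PCDHGB1 (2.43%) and A6-C9 had PCDH18, PCDHAC2 and PCDHGC5 (3.21%). The parental samples differed from each other by that much at 0 of the 47 genes (1.19%). Apart from PCDHAC2, which was past 4-fold in 4 clones, and PCDHGC5, also in 4, no gene was past it in more than 2 clones. Protocadherin genes are expressed at lower levels than most, with a median of 1.22 CPM over the genes tested beside 21.3 CPM for all genes, so large folds rest on fewer reads.

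In all 7 clones 8 of the 47 genes lay below both parental samples (5.56% of all genes tested did) and 1, PCDHB7, lay above both (5.34%). PCDHB7 was at 1.70 and 1.51 CPM in the parental samples and 1.76 to 6.34 in the clones, with a log2 fold change of 1.19 (SE 0.54, edgeR adjusted p 0.373). The 8 were PCDH1, PCDH18, PCDHAC2, PCDHB11, PCDHB13, PCDHB14, PCDHGB2 and PCDHGB3, which include genes of all 3 clusters and 2 non-clustered genes. With H9-A4 set aside, 9 genes were below (11.5%), PCDHB12 being the added one, and 3 above (12.4%), namely PCDHB7, PCDHGA1 and PCDHGC5.

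How far the samples differed from each other was measured as the median size of the log2 CPM difference over the 9 protocadherin genes of at least 5 CPM, beside the same over the 10645 genes of at least 5 CPM. The parental samples differed by 0.082 at the 9 genes and by 0.177 at all. Clones other than H9-A4 differed from parental samples by 0.295 to 0.591, beside 0.257 to 0.328 at all genes, and from each other by 0.126 (E3 and A6-C9) to 0.545 (E3 and G1-A5), beside 0.159 to 0.271. H9-A4 ranked differently by the 2 measures. At all genes it was nearer to the parental samples than any other clone. At the 9 protocadherin genes it was further, at 0.665 and 0.709. Over all 47 protocadherin genes tested H9-A4 was not the furthest. There it differed from the parental samples by 0.700 and 0.709, and the other clones by 0.416 to 1.00. These are descriptions over 9 or 47 genes, some of which share sequence, and no test was made. The DIP2C-/- clones E3 and C10, which have a common origin, differed by 0.233 at the 9 genes and by 0.159 at all genes, the smallest value of any pair at all genes.

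**Figure D5:**
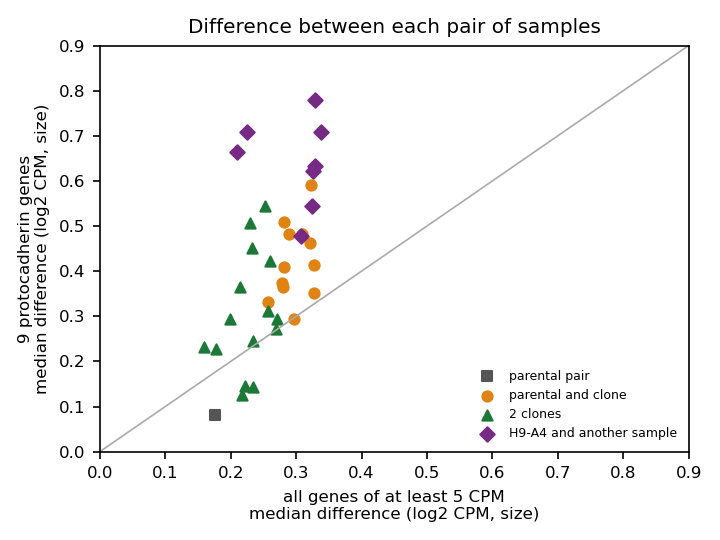
Median size of the log2 CPM difference between each pair of samples over all genes of at least 5 CPM (horizontal axis) and over the 9 protocadherin genes of at least 5 CPM (vertical axis), with a line where both are equal. The parental pair is at 0.177 and 0.082, below the line, and the pairs that include H9-A4 (purple diamonds) all lie above it.

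Genes known to act on the protocadherin clusters were examined as a list of 18, which includes CTCF, the cohesin subunits and the DNA methyltransferases. All 18 were tested and 0 passed with all 9 samples in the 4 comparisons. At an unadjusted p under 0.05 there were 4, 6, 4 and 3, beside 12.7%, 11.6%, 13.4% and 5.57% of all genes. DESeq2 called 0 in each, beside 2.26%, 1.31%, 2.28% and 0.0578% of all genes with an adjusted p. These DESeq2 shares also stand beside the lists below, and at such shares 0 in a short list says little. CTCF, which binds clustered promoters and their enhancers, was at 82.7 and 88.3 CPM in the parental samples and 71.9 to 84.6 in the clones, with a log2 fold change of -0.12 (SE 0.11, edgeR adjusted p 0.703). Without H9-A4 the de novo methyltransferases DNMT3A and DNMT3B fell in all clones, with log2 fold changes of -1.06 (SE 0.21, edgeR adjusted p 0.0111) and -1.28 (SE 0.20, adjusted p 0.00247), 2 of 18 genes beside 8.95% of all genes. DNMT3B was at 23.0 and 26.5 CPM in the parental samples, 23.6 in H9-A4 and 8.36 to 12.7 in the other 6 clones. DNMT3A was at 15.9 and 17.4 CPM in the parental samples, 21.8 in H9-A4 and 6.21 to 9.80 in the others. H9-A4 thus lay between the parental samples for DNMT3B and above both for DNMT3A. Whether these levels have a part in those of the protocadherin genes was not tested.

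Of 20 partners and signalling genes of protocadherins, among them the WAVE complex and the kinases PTK2 and PTK2B that bind their cytoplasmic domains, 0 passed with all 9 samples, with 1, 0, 1 and 1 at an unadjusted p under 0.05, beside the same shares of all genes, and 0 in each by DESeq2. Without H9-A4, PTK2 rose by 0.63 (SE 0.14, edgeR adjusted p 0.0191) in all clones, 1 of 20 genes beside 8.95% of all genes. It was at 210 and 189 CPM in the parental samples, 176 in H9-A4 and 257 to 350 in the other 6 clones. Of 47 other cadherin superfamily genes 39 were tested, and 0 passed with all 9 samples, with 3, 2, 3 and 1 at an unadjusted p under 0.05, beside the same shares, and again 0 by DESeq2. Without H9-A4, of 37 tested, the atypical cadherins FAT1 and CELSR2 fell and CELSR3 rose in all clones, with log2 fold changes of -1.46 (SE 0.14, adjusted p 7.05e-05), -0.87 (SE 0.17, adjusted p 0.00803) and 1.67 (SE 0.35, adjusted p 0.0139), 3 of 37 genes beside 8.95% of all genes. FAT1 was at 441 and 549 CPM in the parental samples, 599 in H9-A4 and 146 to 203 in the other clones, highest in H9-A4.

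Markers of cell types that could differ between the samples were read beside these values. The 9 colorectal epithelial markers summed to 249 and 307 CPM in the parental samples, 151 to 185 in DIP2C-/- and 183 to 332 in DIP2C+/- clones. By edgeR 0 of the 7 tested passed in all 4 comparisons, with 1, 0, 0 and 0 at an unadjusted p under 0.05, beside the same shares of all genes, and 0 by DESeq2. The 7 neuron markers, chosen because neurons express clustered protocadherins, summed to 52.9 and 65.6 CPM in the parental samples, 10.7 to 22.7 in DIP2C-/- and 12.1 to 102 in DIP2C+/- clones. That sum was mainly TUBB3, which was at 49.6 and 62.6 CPM in the parental samples, 98.2 in H9-A4 and 6.72 to 19.6 in the other clones. Of 5 neuron markers tested, 0 passed by edgeR with all 9 samples in the 4 comparisons. At an unadjusted p under 0.05 there were 0 in each, beside the same shares of all genes, and DESeq2 called 0. Without H9-A4, TUBB3 fell by 2.01 on the log2 scale in all clones (SE 0.33, edgeR adjusted p 0.00342). It was 1 of 5 genes to pass, beside 8.95% of all genes. The 5 fibroblast markers summed to 4.90 to 6.51 CPM in the parental samples and 2.55 to 6.31 in the clones, and the 4 blood cell markers to at most 1.85 CPM. Their part in the protocadherin levels was not tested.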

How the data were processed

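RNA of 9 RKO samples was sequenced by the authors on the Ion Proton system, aligned to hg19 and quantified. Per the labels, TopHat2 2.0.4 and Cufflinks 2.2.1 were used. Each deposited table holds 1 estimated count for each gene symbol, and how the authors wrote these from the Cufflinks output is not given in the sources used here. Low values were whole multiples of 1 step per sample (0.71 to 1.11) for 98.4% to 98.8% of genes, so each sample may have been scaled by a constant, and the fits were also made after division by that step.

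Because the planned test takes whole counts, the estimated counts were rounded, filtered with filterByExpr, scaled by TMM and fitted over all genes with 1 coefficient per genotype in edgeR 4.0.16 (R 4.3.3), with the quasi-likelihood F test and Benjamini-Hochberg adjustment. All knockout clones were weighted equally. Standard errors were the size of the log2 fold change over the square root of F. CPM were deposited values scaled by the TMM-adjusted library size. Single clones were set against the mean of the parental log2 CPM (prior count 2). DESeq2 1.42.0, DESeq2 size factors, library-size scaling, no filter, 10 or more counts required of every sample, fits of only the groups compared and leaving out each sample were the alternatives. No batch or date is given. The scripts were tested on simulated data with 200 changed genes.

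Gene positions are from GENCODE 44 mapped to GRCh37, which held all 70 protocadherin genes. The genes and lists were chosen with earlier results of these data known. Named were genes passing an adjusted p of 0.05 with or without H9-A4, genes averaging 5 CPM or more, and genes at least 4-fold from the parental mean in a clone and at least 2 CPM there or in both parental samples. PCDHB7, PCDHB12, PCDH15, PCDH18 and PCDH19 were named after their values were seen.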

Additional observations from a re-analysis of the deposited data

Results flagged for a closer look

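Within the 5 DIP2C+/- clones, a single clone stood far from the rest for 3 of the 15 named protocadherin genes, where chance flags about 1 in 20 groups. That rate does not apply to these 15 as it stands, since 7 of them, PCDHGB2 through H9-A4 among them, met the naming rule that asks for a clone at least 4-fold from the parental mean. PCDHAC2 was at 0.791 CPM in F6-A7 and 0.112 to 0.193 CPM in the other 4 clones. PCDHB2 was at 4.46 CPM in H9-A4 and 15.8 to 21.6 CPM in the others, and PCDHGB2 was at 1.93 CPM in H9-A4 and 7.59 to 9.80 CPM in the others. The gap to the nearest clone was 0.755, 0.799 and 0.843 of the whole range, above the critical value of 0.71 for 5 samples. For PCDHB2 and PCDHGB2 the clone concerned is H9-A4, which is nearest to the parental samples over all genes. Flags over all genes tested were not counted, so the 3 are descriptions and show nothing particular to protocadherin genes.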

How the results depend on the processing

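For the 15 named protocadherin genes, 227 of 237 refitted log2 fold changes of all clones kept their direction and side of the threshold, 7 came to pass it and 3 changed sign. The changes of sign were all of PCDHB16, at -0.06 without parental replicate 2, -0.10 without H9-A4 and -0.02 without A9-A12, beside 0.05, and leaving out 1 sample at a time gave -0.10 to 0.17. The number of protocadherin genes that passed was 2 (PCDH1 and PCDHB13) in DIP2C-/- clones when only the groups compared were fitted, a fit that called 12.6% of all genes. By DESeq2 it was 2 in DIP2C+/- and 3 in all clones, beside 1.31% and 2.28% of all genes. Leaving out 1 sample at a time gave 0 to 4 genes in DIP2C+/- clones and 0 to 3 in all clones, the highest without H9-A4, where 7.95% and 8.95% of all genes passed. Without F6-A7 it was 1 of 46 in all clones, PCDHAC2, at -2.98, beside 20 of all 15180 genes tested. Leaving out 1 sample gave 0 in DIP2C-/- clones and in DIP2C+/- against DIP2C-/- clones. The cause was not tested. Over all alternatives the adjusted p of the all-clones change ranged from 0.0111 to 0.815 for PCDH1, 0.0325 to 0.815 for PCDHAC2, 0.0349 to 0.815 for PCDHB11 and 0.0408 to 0.816 for PCDHGC5, and the log2 fold change from -1.50 to -1.17, -2.98 to -2.22, -0.77 to -0.67 and 2.29 to 3.56. The fit of only the groups compared used fewer samples and 14381 genes for DIP2C-/- clones. Where parental or DIP2C-/- samples were left out, the lone sample was assumed to vary like the other groups. No paired analysis was possible because the labels give clone names and no replicate number shared between genotypes. The 23 genes under the filter reached at most 0.616 CPM, where 3 counts are 0.14 to 0.203 CPM, and when fitted without a filter 0 of all 70 genes passed.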
